A study of Mus musculus with 12 samples.

Results

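The 9 genes described here encode adhesion proteins that join the pre- and postsynaptic sides of a synapse: the neurexins Nrxn2 and Nrxn3, the neuroligins Nlgn1, Nlgn2 and Nlgn3, and the leucine-rich repeat transmembrane proteins Lrrtm1, Lrrtm2, Lrrtm3 and Lrrtm4. They were taken by name from the gene column of the deposited tables, 9 of the 14091 gene names that reached a mean of 1 FPKM (fragments counted per length of transcript and per number of mapped fragments) in at least 1 table, and all 9 did so in every table. The RNA came from the prefrontal cortex (PFC) of 10-week-old male C57BL/6 mice that had been injected for 14 days with saline or with cocaine at 20 mg/kg per day, with tissue taken at 2 h, at 24 h or at 7 d from the final injection. Prelimbic and orbital areas and the frontal association area were dissected together. Each of the 6 groups, saline 2 h, cocaine 2 h, saline 24 h, cocaine 24 h, saline 7 d and cocaine 7 d, had 2 libraries, and each library pooled 5 mice. The tables give 1 pooled FPKM per group, so there is no spread between replicates, no standard error and no test behind any value below, and sequencing depth cannot be read from the tables. Differences are therefore given as log2 ratios of cocaine over saline, on the scale of log2(FPKM + 0.1), and are read against the ratios of all genes of the same table.

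Neurexins sit in the presynaptic membrane and bind across the cleft to neuroligins and LRRTMs in the postsynaptic membrane. Nlgn1 is found mainly at excitatory synapses, Nlgn2 mainly at inhibitory synapses, and Nlgn3 at both. LRRTMs are organizers of excitatory synapses, and Lrrtm2 in particular helps to hold AMPA-type glutamate receptors at the synapse. In cortex these proteins are made mostly by neurons, and they are known for setting the number, kind and strength of synapses.

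The promoters of Lrrtm1 and Lrrtm4 are shown because these genes were past 1.2-fold between cocaine and saline at 24 h. That of Nlgn2 is shown because its ratio was the largest of the 9 genes at 7 d, though short of this fold. Windows were read before 10 RefSeq transcription starts (GRCm38.p6) of 6 of the 9 genes. No window was read for Nrxn2, Nlgn3 or Lrrtm2, so nothing is said of their promoters. Each line holds the 250 bases before 1 start, 5′ to 3′ on the strand of the gene, with CG pairs in capitals. The windows are chr6:77242227-77242476 (plus strand) for Lrrtm1, chr6:80018627-80018876 (plus strand) for the first Lrrtm4 start that was read, and chr11:69837785-69838034 (minus strand) for Nlgn2. The Lrrtm1 window lies inside the RefSeq span of the gene, which begins at 77229210, and the bases before that outer start were not read. The Lrrtm4 window ends a few bases inside the RefSeq span of its gene, which begins at 80018858.
Lrrtm1: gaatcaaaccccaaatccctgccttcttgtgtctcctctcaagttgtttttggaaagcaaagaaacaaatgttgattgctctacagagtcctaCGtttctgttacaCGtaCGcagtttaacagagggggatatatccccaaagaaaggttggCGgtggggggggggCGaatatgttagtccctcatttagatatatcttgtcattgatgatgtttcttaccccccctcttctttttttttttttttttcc
Lrrtm4: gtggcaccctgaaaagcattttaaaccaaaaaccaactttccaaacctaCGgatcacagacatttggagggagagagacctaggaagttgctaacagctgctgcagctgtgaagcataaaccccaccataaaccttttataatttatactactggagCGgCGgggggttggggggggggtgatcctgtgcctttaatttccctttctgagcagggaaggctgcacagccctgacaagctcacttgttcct
Nlgn2: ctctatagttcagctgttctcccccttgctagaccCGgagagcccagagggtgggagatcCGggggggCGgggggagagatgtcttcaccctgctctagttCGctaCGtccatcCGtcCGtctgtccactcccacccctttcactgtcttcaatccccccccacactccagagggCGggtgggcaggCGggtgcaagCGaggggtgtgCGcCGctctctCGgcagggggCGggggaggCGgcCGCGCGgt
The Nlgn2 window held 18 CG pairs and 67.6% G and C, the Lrrtm1 window 5 CG pairs and 42%, and the Lrrtm4 window 3 CG pairs and 49.2%. Over all 32851 windows the median was 6 CG pairs and 52.4% G and C. None of these 3 windows held, on either strand, the CRE half-site TGACG, which 17.8% of all windows hold, or the full CRE TGACGTCA (1.55%), which contains it. The AP-1 letters TGAGTCA or TGACTCA (4.46% of all windows), the EGR letters GCGGGGGCG or GCGTGGGCG (3.06%), the E-box CACGTG (6.02%) and the letters CCAAT (33.8%) were not found in them either. A further start of Lrrtm4, with the window chr6:80019393-80019642, held 8 CG pairs and 54% G and C. Among all 10 windows the 1 match to these letters was a CCAAT in a window of Nlgn1.

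The neurexin Nrxn2 had the highest level of the 9 genes in all 6 groups, followed by Nlgn2 and Nrxn3, and Lrrtm2 had the lowest. At 2 h in saline, for example, the FPKM was 111 for Nrxn2, 46.6 for Nlgn2, 33.1 for Nrxn3 and 8.11 for Lrrtm2. The 5 other genes lay between 12.3 and 20.3 FPKM in that group, and their order changed between groups. Without values per library it cannot be said which neighbours in this order differ. The Nlgn3 row of every table is shared with Med12, the adjoining gene for a subunit of the Mediator complex, and the Lrrtm3 row with Gm10118, so both rows are joint values. The tables of the 3 time points were scaled separately, so a level set across tables can differ through scaling as well as through time.

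**Figure D1:**
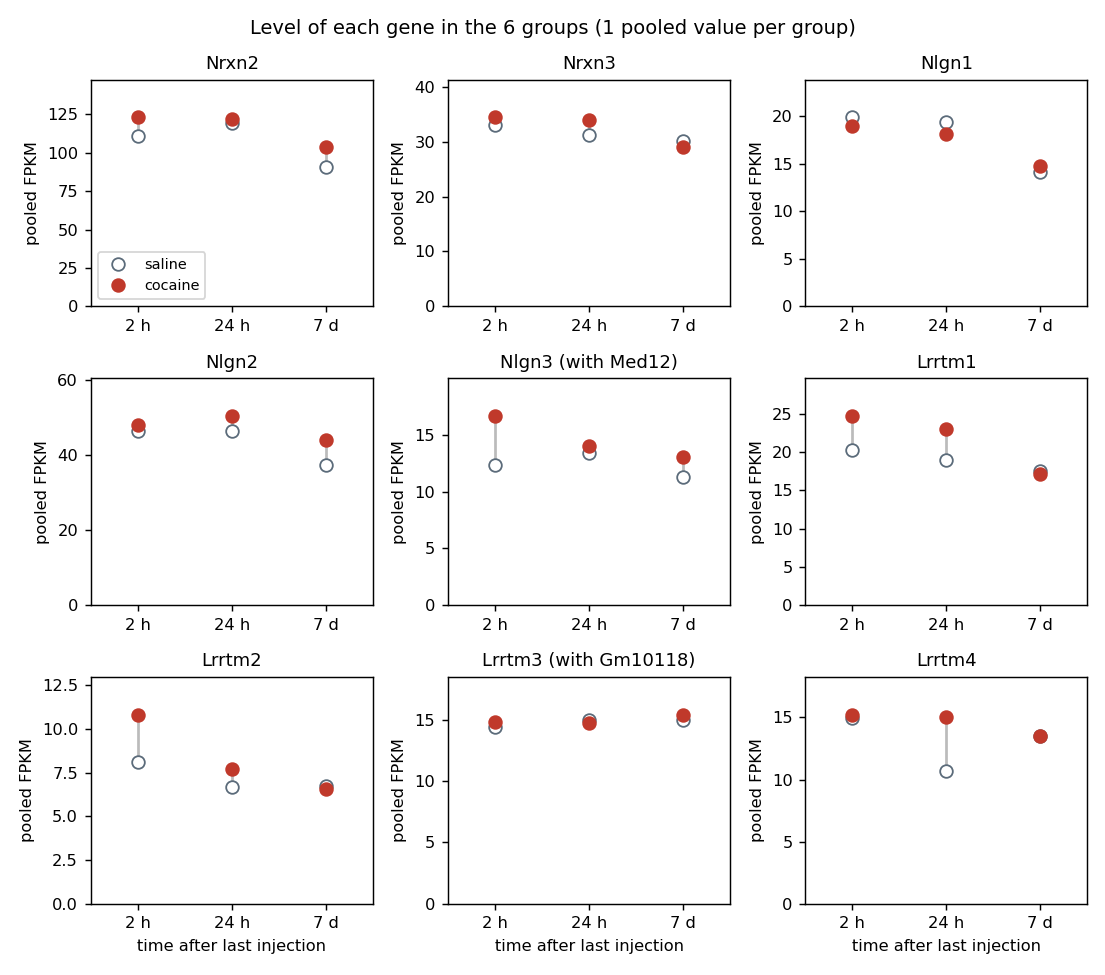
Pooled FPKM (vertical axes, starting at 0) of each of the 9 genes by time after the last injection, with open circles for saline, filled circles for cocaine and 1 value per group. As a ratio, saline and cocaine stand farthest apart for Nlgn3 (with Med12), Lrrtm1 and Lrrtm2 at 2 h and for Lrrtm1 and Lrrtm4 at 24 h, and the 7 d pairs of all 4 LRRTM genes nearly coincide.

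LRRTM genes made up 4 of the 5 differences past 1.2-fold, all toward higher levels in cocaine and all at 2 h or 24 h, when 10.5% (2 h) and 6.09% (24 h) of all genes were higher by that fold (17.7% and 11.6% past it in either direction). Lrrtm2 (chromosome 18, 35209003 to 35215024 of GRCm38) stood at 8.11 FPKM (saline) against 10.8 (cocaine) after 2 h, at 6.67 against 7.72 after 24 h, and at 6.72 against 6.54 after 7 d. The highest of its 6 values was thus that of cocaine at 2 h, and the groups differed by log2 ratios of 0.41, 0.21 and -0.04. Of all genes with a mean of at least 1 FPKM, 95.3% had a lower ratio than Lrrtm2 at 2 h, 90.8% at 24 h and 44.4% at 7 d.

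Lrrtm1 (chromosome 6, 77229210 to 77259915) stood at 20.3 FPKM (saline) against 24.7 (cocaine) after 2 h, at 18.9 against 23.1 after 24 h, and at 17.6 against 17.2 after 7 d. The cocaine values at 2 h and 24 h stood above all 4 others. Its log2 ratios were 0.28 at 2 h, 0.28 at 24 h and -0.03 at 7 d, so that the first 2 lay just past the fold used here (log2 0.263). Less the median of genes of like transcript length they were 0.25 and 0.26, short of it.

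Lrrtm4 (chromosome 6, 80018858 to 80810162) stood at 15.0 FPKM (saline) against 15.2 (cocaine) after 2 h, at 10.7 against 15.1 after 24 h, and at 13.5 in both groups after 7 d. Its log2 ratio of 0.49 at 24 h was the farthest from 0 of all 27 values of the 9 genes, and 97.9% of genes had a lower one. The value that stood apart was that of saline at 24 h. Set across the separately scaled tables, Lrrtm4 in saline was 0.48 lower on the log2 scale at 24 h than at 2 h (-0.48), at percentile 1.65 of 13167 genes, whereas in cocaine the same step was -0.01. In the same table the summed FPKM of 5 astrocyte markers was 367 in saline against 327 in cocaine, with 2 of 5 (Gfap and Aqp4) lower by 1.2-fold, and that of 6 oligodendrocyte markers 803 against 669, with 1 of 6 (Mbp) lower. Their part in the Lrrtm4 and Lrrtm1 values was not tested, and in pooled tissue fewer cells of a type cannot be told apart from less RNA per cell.

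Lrrtm3 (chromosome 10, 63928497 to 64090255), in its joint row with Gm10118, was the steadiest member. It had 14.4 FPKM (saline) against 14.8 (cocaine) after 2 h, 15.0 against 14.8 after 24 h, and 15.0 against 15.4 after 7 d. The highest of its saline values was 1.04 times the lowest, and the same held for its cocaine values.

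The summed FPKM of the 4 LRRTM rows was 57.7 (saline) against 65.5 (cocaine) after 2 h, 51.2 against 60.6 after 24 h, and 52.7 against 52.6 after 7 d. Lrrtm2 took 14.1% of this sum in saline and 16.5% in cocaine at 2 h, and between 12.4% and 13% in the 4 later groups. Lrrtm4 took 20.8% in saline at 24 h and from 23.2% to 25.9% in the 5 other groups. These shares do not depend on how a group was scaled.

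**Figure D2:**
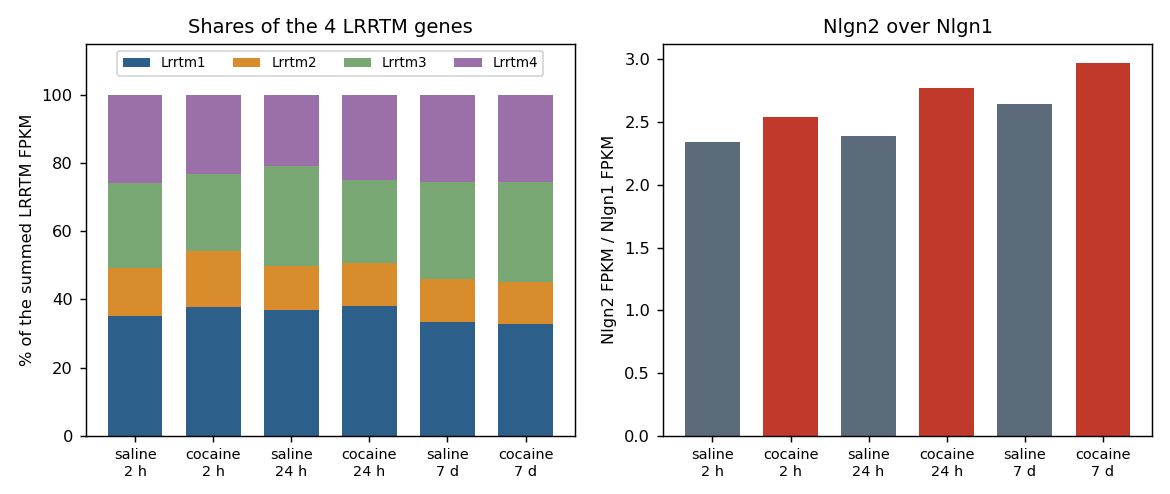
Left, the share (%) of each LRRTM row in the summed LRRTM FPKM of each of the 6 groups, as stacked bars; right, the FPKM of Nlgn2 divided by that of Nlgn1 in the same groups. The Lrrtm2 share is largest in cocaine at 2 h (16.5%), the Lrrtm4 share smallest in saline at 24 h (20.8%), and the Nlgn2 to Nlgn1 ratio is higher in cocaine than in saline at each time point.

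The genes Lrrtm2, Lrrtm1 and Lrrtm3 lie within the spans of the alpha-catenin genes Ctnna1, Ctnna2 and Ctnna3, whose products link cadherins to actin, and are read from the opposite strand. The library kit did not keep the strand, so reads from the overlapping stretches cannot be told apart by strand. The tables give each host and guest gene an FPKM of its own, but the deposited loci of these LRRTM rows run over the host's span, as 76881600 to 77979699 on chromosome 6 for Lrrtm1 at 2 h. The shorter coordinates printed with each gene are those of RefSeq. Ctnna1, host of Lrrtm2, had 15.8 FPKM (saline) against 17.6 (cocaine) after 2 h (log2 0.15), 16.3 against 16.7 after 24 h, and 15.7 against 16.5 after 7 d. Ctnna2, host of Lrrtm1, had 34.8 against 33.9 FPKM after 2 h (log2 -0.04), 30.6 against 33.7 after 24 h (log2 0.14), and 31.1 against 31.5 after 7 d. Ctnna3, host of Lrrtm3, stayed under 0.3 FPKM in all 6 groups, with 0.175 (saline) against 0.275 (cocaine) after 2 h. Ctnna1 and Ctnna2 were not past 1.2-fold at any time point, and Ctnna3 was below the minimum of 1 FPKM and was not counted. Ctnna1 was higher in cocaine together with Lrrtm2 at 2 h, and Ctnna2 together with Lrrtm1 at 24 h, and their part in those 2 values was not tested.

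**Figure D3:**
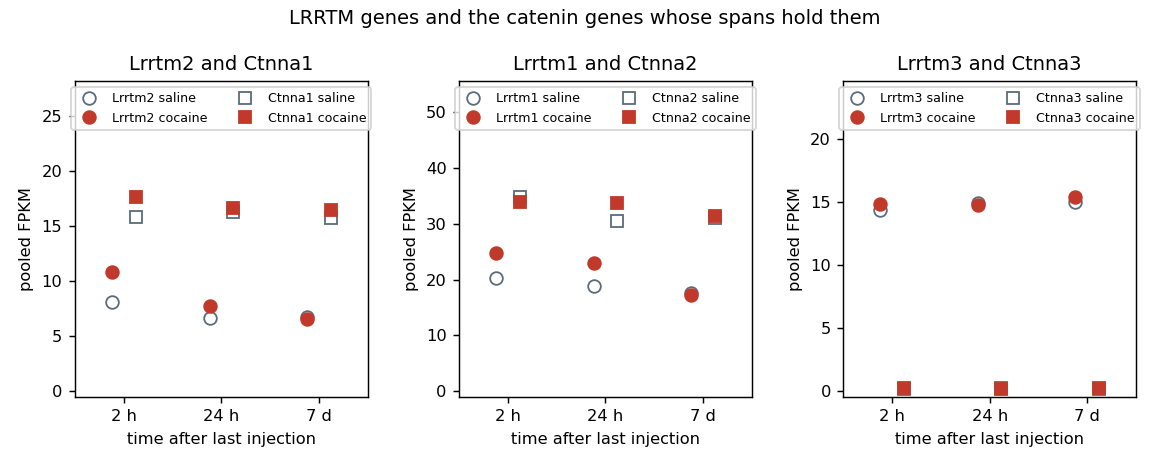
Pooled FPKM (vertical axes) by time after the last injection for 3 LRRTM genes (circles) and the alpha-catenin gene whose span holds each (squares), open for saline and filled for cocaine; Lrrtm3 is the joint row with Gm10118. Lrrtm2 separates more at 2 h (8.11 and 10.8) than Ctnna1 (15.8 and 17.6), and Lrrtm1 is higher in cocaine at 2 h while Ctnna2 is not.

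Among the neuroligins, the Nlgn3 row at 2 h was past 1.2-fold, and Nlgn2 had the largest ratio of all 9 genes at 7 d. The row of Nlgn3 (chromosome X, 101299179 to 101321350) and Med12 (101274091 to 101298934) had 12.3 FPKM (saline) against 16.7 (cocaine) after 2 h, 13.4 against 14.1 after 24 h, and 11.3 against 13.0 after 7 d. Cocaine was the higher group each time, with log2 ratios of 0.43, 0.07 and 0.20. The cocaine value at 2 h stood above the 5 others of this row. How much of the difference at 2 h belongs to Nlgn3 and how much to Med12 cannot be told apart.

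Nlgn2 (chromosome 11, 69823123 to 69837784) had 46.6 FPKM (saline) against 48.2 (cocaine) after 2 h, 46.5 against 50.4 after 24 h, and 37.5 against 44.0 after 7 d. Its log2 ratio of 0.05 after 2 h and 0.12 after 24 h was followed by 0.23 after 7 d, where 89.5% of genes had a lower one; at 1.17-fold the last value stayed short of the fold used here. Both 7 d levels were below those of the earlier tables, saline more so than cocaine.

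Nlgn1 (chromosome 3, 25421808 to 26332866) had 19.9 FPKM (saline) against 18.95 (cocaine) after 2 h, 19.5 against 18.2 after 24 h, and 14.2 against 14.8 after 7 d. It was the 1 member with lower values in cocaine at both 2 h (log2 -0.07) and 24 h (log2 -0.10), and its ratio at 7 d was 0.06. At 24 h the table held a further, short Nlgn1 locus at 25421834 to 25430619 with 1.89 (saline) against 1.95 (cocaine) FPKM. The other tables held no such row under this name. Their Nlgn1 loci did not cover that stretch either, with lower ends at 25430825 (2 h) and 25431811 (7 d).

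Nlgn2 over Nlgn1, the neuroligin of inhibitory over that of excitatory synapses, does not depend on the scaling of a group. The ratio of their FPKM was 2.34 (saline) against 2.54 (cocaine) after 2 h, 2.39 against 2.77 after 24 h, and 2.64 against 2.97 after 7 d. It was higher in cocaine in 3 of 3 tables, by 0.12, 0.21 and 0.17 on the log2 scale. Saline alone spanned 2.34 to 2.64 over the 3 tables, and only the 24 h difference was larger than that range on the log2 scale. Genes of the lengths of Nlgn2 and Nlgn1 differed in their medians by 0.01, -0.01 and 0.04 on the same scale. The summed FPKM of the 3 neuroligin rows was 78.8 (saline) against 83.8 (cocaine) after 2 h, 79.3 against 82.7 after 24 h, and 62.9 against 71.8 after 7 d.

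Several levels, in saline and in cocaine, were lower in the 7 d table than in the 2 h table. In this step time cannot be told apart from scaling or from the extent of a locus. The Nrxn2 locus began at 6399314 in the 2 h table and at 6418731 in the 7 d table. The lower end of the Nlgn1 locus was 25430825 and 25431811 in the same order. In saline, 7 d over 2 h gave a log2 ratio of -0.49 for Nlgn1, -0.31 for Nlgn2 and -0.29 for Nrxn2, beside a median of -0.01 over 12941 genes. These 3 ratios stood at percentiles 2.63, 7.18 and 8.78 of those genes, whereas Lrrtm3 had 0.06. In cocaine the same step gave -0.35 for Nlgn1, -0.13 for Nlgn2 and -0.24 for Nrxn2, beside a median of -0.04. Lrrtm2 (-0.71) and Lrrtm1 (-0.52) had the lowest ratios of the 9 genes there, and Lrrtm3 had 0.05. Over the 3 tables the highest cocaine value of Lrrtm2 was 1.65 times its lowest, and its highest saline value 1.22 times its lowest. For Lrrtm1 the same ranges were 1.44-fold in cocaine and 1.16-fold in saline, and for Lrrtm4 they were 1.13-fold in cocaine and 1.40-fold in saline.

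The neurexins differed little between cocaine and saline, and none of their ratios passed 1.2-fold. Nrxn2 (chromosome 19, 6418756 to 6533217) had 111 FPKM (saline) against 123 (cocaine) after 2 h, 119 against 122 after 24 h, and 90.9 against 104 after 7 d, with log2 ratios of 0.15, 0.03 and 0.19. Cocaine was the higher group each time. Nrxn3 (chromosome 12, 88722701 to 90334935) had 33.1 against 34.4 FPKM after 2 h, 31.2 against 34.0 after 24 h, and 30.1 against 29.1 after 7 d, with log2 ratios of 0.06, 0.12 and -0.05. The FPKM of each gene sums the long and short neurexin forms read from its separate promoters, so a shift between forms would not show. Nrxn2 over Nrxn3 was 3.36 (saline) against 3.57 (cocaine) after 2 h, 3.83 against 3.59 after 24 h, and 3.01 against 3.58 after 7 d. The cocaine ratios thus stayed within 3.57 to 3.59, and the saline ratios spanned 3.01 to 3.83. The summed FPKM of both neurexins was 144 against 157, 151 against 156 and 121 against 133 in the order of the time points.

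Counted over the 9 genes, 3 were past 1.2-fold at 2 h, 2 at 24 h and 0 at 7 d, each of them higher in cocaine. Past 1.2-fold in either direction were 17.7% of 13359 genes at 2 h, 11.6% of 13565 at 24 h and 19.9% of 13429 at 7 d, and higher in cocaine by that fold were 10.5%, 6.09% and 8.12%. Among genes with a mean of at least 5 FPKM, as all 9 members had, 10.7%, 6.48% and 15.6% were past 1.2-fold in either direction. No test was made of the member counts against these shares. The members had a median log2 ratio of 0.06, 0.12 and 0.04 in the order of the time points, beside 0.02, 0.01 and -0.01 over all genes. Cocaine was higher for 8, 7 and 6 of the 9 members, beside 56.6%, 53.1% and 47.7% of all genes.

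**Figure D4:**
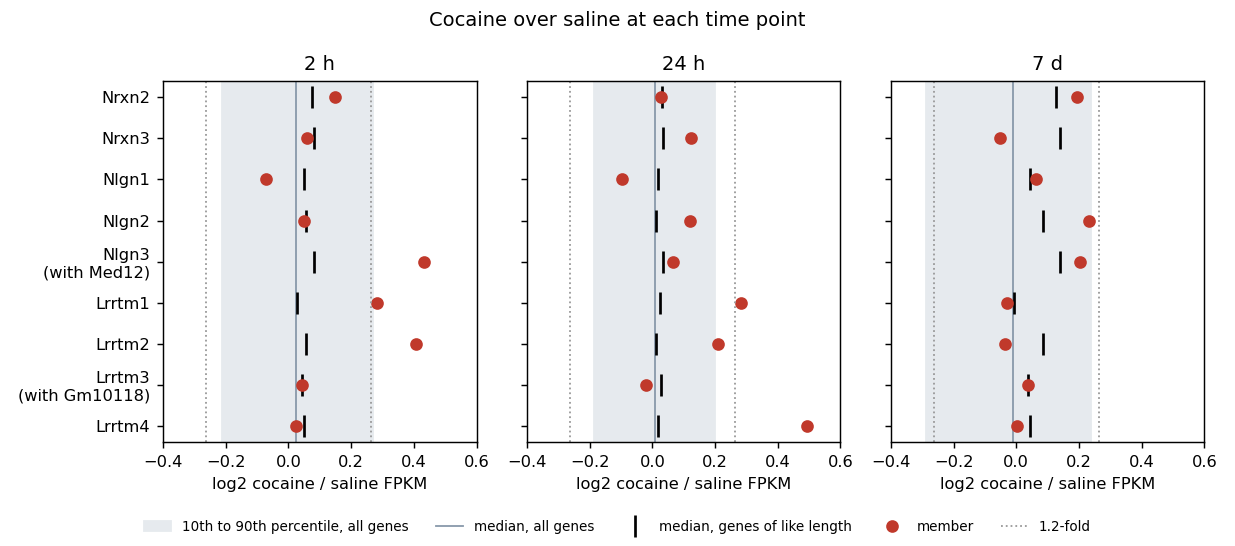
Log2 ratio of cocaine over saline FPKM (horizontal axes) for each member (points) at the 3 time points, with the median and the 10th to 90th percentile of all genes, the median of genes of like transcript length (ticks) and the 1.2-fold limits (dotted). The 5 points past the upper limit are Nlgn3 (with Med12), Lrrtm1 and Lrrtm2 at 2 h and Lrrtm1 and Lrrtm4 at 24 h, and none lies past the lower one.

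The members are long, and at 7 d the ratio moved with length. The longest coding transcript ran from 2958 nt for Lrrtm1 to 8541 nt for Nlgn3, with a median of 5568 nt against 3064 nt over all genes at 7 d. Across genes, which are not independent replicates, Spearman's rho of log2 ratio and length was 0.472 at 7 d, 0.157 at 2 h and 0.0855 at 24 h. At 7 d the median ratio went from -0.24 in the shortest of 20 length groups to 0.14 in the longest. Genes as long as Nlgn2 had a median of 0.09 at 7 d, so that Nlgn2 lay 0.15 above it, and Nrxn2 and Nlgn3 lay 0.07 and 0.06 above theirs. Nrxn3 lay 0.19 below the median of its group (-0.19). Lrrtm2 and Nlgn3 at 2 h lay 0.35 above theirs, and Lrrtm4 at 24 h 0.48. Against genes of like length, 5 of 9 members were higher at 2 h, 6 at 24 h and 4 at 7 d.

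**Figure D5:**
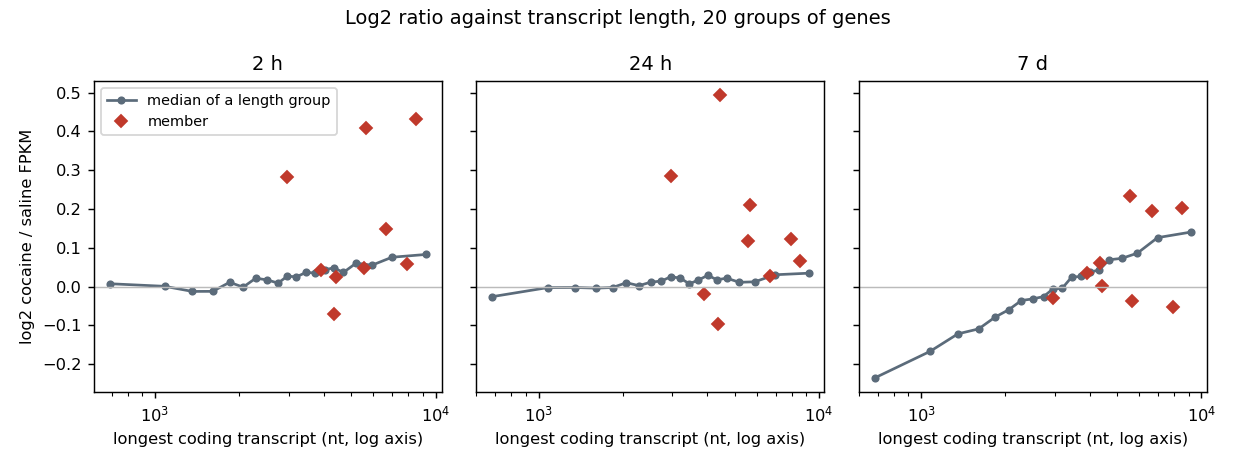
Log2 ratio of cocaine over saline FPKM (vertical axis) against the longest coding transcript (nt, log axis) at 2 h, 24 h and 7 d, with diamonds for the 9 members and joined circles for the medians of 20 groups of genes of like length. The medians climb with length at 7 d, from -0.24 to 0.14, and the members of that time point lie on both sides of the line.

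Other genes of these synapses were read from a list of 67 partners, related organizers and host genes. Past 1.2-fold, 3 were higher and 3 lower in cocaine among 63 rows at 2 h, 1 higher and 2 lower among 64 at 24 h, and 8 higher and 1 lower among 63 at 7 d. Of all genes 17.7%, 11.6% and 19.9% were past it in either direction, and 10.5%, 6.09% and 8.12% were higher in cocaine by that fold. The median log2 ratios of the listed rows were 0.02, 0.01 and 0.06, beside 0.05, 0.02 and 0.04 for genes of like length. At 2 h Cbln4, a secreted neurexin ligand, had 3.05 (saline) against 4.11 (cocaine) FPKM, and Shank3, a postsynaptic scaffold, had 38.0 against 46.3. Flrt1, an adhesion protein, had 2.95 against 3.62. Shank3 (log2 0.28) and Flrt1 (log2 0.29) were short of 1.2-fold once the medians of genes as long (0.08 and 0.06) were taken off. Lower at 2 h were Flrt2 (13.2 and 8.14 FPKM, log2 -0.70), Slitrk1 (28.1 and 23.1) and Nxph3, a secreted neurexin ligand (2.93 and 2.24).

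At 24 h the list held Lrfn2 on the higher side, with 4.47 (saline) against 5.50 (cocaine) FPKM. Mdga1, which binds neuroligins and keeps neurexins away from them, had 2.19 (saline) against 1.48 (cocaine) FPKM after 24 h (log2 -0.53), and 1.77 against 2.47 after 7 d (log2 0.46). Gphn, the gephyrin scaffold of inhibitory synapses, stood on 2 loci of the same span at 24 h, and the lower call came from a locus with 1547 (saline) against 1241 (cocaine) FPKM. The other Gphn locus had 18.5 and 17.8 FPKM at 24 h, near its 17.7 and 17.5 at 2 h.

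At 7 d Shank3 had 33.4 (saline) against 42.4 (cocaine) FPKM (log2 0.34), and Slitrk2, an organizer, had 3.64 and 4.88 (log2 0.41). Mdga1, Ntng1 (log2 0.31) and Apba1, a presynaptic adaptor that works with neurexins (log2 0.31), were also higher. The rest of the higher side was Lrrc4b in a row shared with Aspdh (log2 0.29), Ntng2 (log2 0.29) and Gpc4, a proteoglycan that binds Lrrtm4 (log2 0.28). These last 3 were named after their values were seen. Lin7b, a short adaptor gene, was the lower one (82.4 and 66.4 FPKM, log2 -0.31), and genes as short had a median of -0.24. Genes as long as Shank3, Slitrk2 and Apba1 had a median of 0.13 and those as long as Mdga1 one of 0.14, and Shank3 and Apba1 were short of 1.2-fold once this was taken off.

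The genes with the most similar log2 ratios over the 3 time points were taken, by Euclidean distance, among 12843 rows. For the Nlgn3 row they were Adcy9 (distance 0.0179), Tmem132e (0.0232) and Smad3 (0.041). For Lrrtm4 they were Mbd4 (0.0205), Ifit3 (0.0708) and I830012O16Rik (0.0734), and for Nlgn2 they were Gm26596 (0.0183), Zbtb8a (0.0202) and Golga3 (0.0254).

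Markers of cortical neurons were present in all 6 groups, and no marker gene of any list was listed at 0. The summed FPKM of 9 neuronal markers ran from 3442 to 3629, and 0, 0 and 1 of them (Neurod6, lower at 7 d) were past 1.2-fold at the 3 time points. At 2 h, 5 astrocyte markers summed to 319 against 351 FPKM and 6 oligodendrocyte markers to 670 against 630, with none past the fold. Of 4 microglia markers none was past it at any time point, and of 4 vascular markers none at 2 h or 24 h. At 7 d the astrocyte markers summed to 313 against 351, with 2 of 5 higher, and the vascular markers to 70.0 against 80.0, with 2 of 4 higher. Of the choroid plexus list only Ttr reached a mean of 1 FPKM, and its log2 ratio of -1.83 after 2 h and -0.66 after 24 h turned to 4.11 after 7 d, when it had 0.284 FPKM (saline) against 6.54 (cocaine). Of 6 striatal genes 4 had a mean of at least 1 FPKM, and of these Adora2a was higher and Rgs9 lower at 2 h and again at 7 d, with sums over the list between 65.4 and 80.3 FPKM. The 4 olfactory bulb genes summed to 6.45 to 7.46 FPKM, and the 1 with a mean of at least 1 FPKM, Doc2g in a row shared with Nudt8, was not past the fold. Of the 2 markers of oligodendrocyte precursors Pdgfra was past it, lower in the 24 h table and higher in the 7 d table. The part of these shifts in the values of the 9 genes was not tested.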

How the data were processed

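RNA from the PFC was sequenced from poly(A)-selected libraries, 12 in all, 2 per group, each pooling 5 of 60 mice. Trimmed reads were aligned by the authors with TopHat2 (2.0.12 in the submitters' processing notes), and Cuffdiff of Cufflinks (2.2.1 in the same notes) compared both groups of a time point. The deposited FPKM values are the authors' pooled estimates, 1 per group and locus. The other columns hold the authors' own fold changes, test statistics, p values and q values, and were not used, so this text has no test. Sources differ on the trimmer, the read length, the Cufflinks version and the build (mm9 in the methods, GRCm38 in the notes). Of the loci at 2 h whose name RefSeq holds, 99.8% overlapped that gene on GRCm38, with 99.7% at 24 h and 99.8% at 7 d. Loci were made 1-based by adding 1 to the start.

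The group codes in the tables do not match the sample labels clearly, and the first value column was taken as saline from the column order of the study's supplementary tables. Ratios were computed with numpy 2.4.6 and pandas 2.3.3 under Python 3.11.15. A gene name on several loci took its longest locus, and then the higher mean FPKM. Log2 ratios used a pseudocount of 0.1 FPKM and genes with a mean of at least 1 FPKM, and 1.2-fold marked a difference; it is a size, not a test. Length was that of the longest coding transcript of the symbol in GENCODE vM1, found for 85.7%, 84.9% and 85.1% of genes at 2 h, 24 h and 7 d. The genes named were the 9 members, listed partners past 1.2-fold with a mean of at least 1 FPKM, and the 3 nearest genes of the member farthest from 0 at each time point; marker genes were named after their values were seen. Members and lists were chosen with earlier results of these data known. The steps were tested on simulated data. The alternatives were other pseudocounts, filters, folds, locus choices and centrings.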

Additional observations from a re-analysis of the deposited data

How the results depend on the processing

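The counts of members past 1.2-fold at 2 h, 24 h and 7 d (3, 2 and 0) kept within 1.5 times under other pseudocounts, filters and locus choices. Centring on genes of like transcript length left 1 member at 24 h, Lrrtm4, since Lrrtm1 lay just short (0.2588), and 7.05% of all genes passed there. At 2 h Lrrtm1 was lost too, under this centring (0.2547) and under centring on the median of all genes (0.2572), which left 2 members each time. Of all genes 11.8% and 17.3% passed under these 2 centrings at 2 h. A 1.1-fold limit gave 3 members at 7 d, where 46.7% of all genes passed it. A 1.5-fold limit gave 0 at 2 h and 0 at 24 h, where 4.03% and 3.2% of all genes passed it. The median log2 ratio of the members had ranges over these settings of 0.00 to 0.06 (2 h), 0.09 to 0.12 (24 h) and 0.00 to 0.05 (7 d). With no replicates, a single log2 ratio counted as moved past 0.1: of 189 recomputed ratios 3 moved, all at 7 d under length centring (Nrxn2 to 0.07, Nrxn3 to -0.19, Nlgn3 to 0.06). The sign of 7 small ratios changed, 6 of them under length centring (Nrxn3, Nlgn2 and Lrrtm4 at 2 h, Nrxn2 at 24 h, Lrrtm3 and Lrrtm4 at 7 d) and 1 under median centring (Lrrtm4 at 2 h), and none of these was past 1.2-fold. No paired analysis was possible because the tables hold 1 pooled value per group, and for the same reason leaving out each replicate was not run. The tables give neither depth nor the spread between libraries, and the authors' own test columns were not used, so the differences given here were not set against that spread.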
